A study of Mus musculus with 16 samples.

Results

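A placement difference between the diets was measured for 10897 of 48158 genes in mouse hepatocytes. Placement is the level of a message on heavy polysomes minus its level on monosomes, in log2(FPKM + 1). FPKM is a level per length of transcript, scaled for the size of the library, here summed over the transcripts of a gene. The placement difference is the placement in DDC-fed mice minus the placement in chow-fed mice. A positive value means that, relative to chow, the message was shifted towards heavy polysomes with DDC. A gene was tested if it reached 1 FPKM in at least 2 of 8 libraries, and 39 abundant genes listed at 0 in a whole group were left out. The lists of ribosomal protein and plasma protein genes are given only as the background against which the other genes are described.

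The 8 libraries were heavy polysomes and monosomes of FVB mice fed DDC for 4 weeks and of FVB mice on normal chow, with 2 libraries in each of the 4 groups. DDC is diethoxycarbonyl dihydrocollidine, a feed additive that injures hepatocytes and bile ducts. Hepatocytes of both diets were isolated with cycloheximide, which holds ribosomes on the message, lysates were spread over sucrose gradients, and the RNA was selected by its polyA tail. The DDC libraries came from preparations B and C and the chow libraries from preparations CH1_CH2 and CH3_CH4, called preparations 1 and 2 of each diet below. The labels do not say whether a preparation was a pool of mice or whether libraries came from separate animals. What a p-value weighs is thus the spread of these libraries, which may be technical.

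A message with several ribosomes on it sediments with heavy polysomes, and a message with a single ribosome sediments with monosomes. Messages whose 5′ end carries a terminal oligopyrimidine tract (TOP messages) encode ribosomal proteins and translation factors, and they are known to move between polysomes and lighter fractions as a group with growth signalling through mTORC1. A sedimentation profile shows where a message lies among the fractions. It does not give the rate at which ribosomes move along it.

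In 1 preparation the libraries stood apart. Chow preparation 1 had the Y-linked genes Kdm5d, Uty, Ddx3y and Eif2s3y at 0 in all its libraries and Xist at 2.44 FPKM on monosomes. All other libraries held Eif2s3y at 4.2 FPKM or more and Xist at 0. Sex and preparation cannot be told apart in the chow group. Summed FPKM ran from 858593 to 1092668 in DDC heavy polysomes, 614115 to 668537 in DDC monosomes, 1364644 to 1386166 in chow heavy polysomes and 767756 to 815252 in chow monosomes. Sequenced depth is not known, since the values are scaled.

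With limma and Benjamini-Hochberg adjustment, 147 genes were placed higher with DDC (1.35% of those tested) and 142 were placed lower (1.3%). In all 289 the 2 DDC preparations lay on the same side of both chow preparations, as they did in 5464 of the 10897 genes tested (50.1%), and the log2 differences were at least 1.13 in size. The median over all genes tested was -0.04, with 5263 positive and 5634 negative differences. These calls rest on a spread pooled over all 16 libraries of the series, and that spread was uneven. The replicate SD was 0.454 and 0.44 (log2) for DDC heavy polysomes and monosomes and 0.558 and 0.514 for those of chow, against 0.24 and 0.363 in the DDC and chow cytoplasm. With the spread taken from the 8 libraries alone, 1 gene passed. None of the 43 called genes whose difference is given below passed in that fit. Without chow monosome replicate 2 there were 8 calls, 6 of them among the 289. Fractions of 1 preparation deviated together, and with the preparation as a block in the 12 gradient libraries 91 genes were placed higher and 145 lower, 165 of them among the 289. Without chow preparation 1 there were 374 calls, 112 of them among the 289.

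The ribosomal protein list held 39 of the 147 genes placed higher, of 85 tested, and none placed lower. The plasma protein list held 9 of the 142 placed lower, of 133 tested, and none placed higher. Outside both lists 108 genes were placed higher and 133 lower, of 10679. Predicted genes and pseudogenes were part of these, among them 7 pseudogenes named after ribosomal proteins that were placed higher. Reads of a gene and of its processed copies may be split between them, which concerns Tpt1, Naca, Npm1 and Eef1b2 as well. The rest of the description concerns annotated genes outside both lists that reached 1 FPKM in a fraction of each diet. Of these 8254 genes, 53 were placed higher and 105 lower.

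Genes placed higher and genes placed lower lay far apart in placement in chow and close together with DDC. The genes were chosen by the difference between these placements in the same libraries. The medians and the monosome part below thus describe the chosen genes and are not separate support. The 53 genes placed higher had a median placement of 0.21 in DDC and -1.43 in chow. The 105 genes placed lower had a median placement of 0.30 in DDC and 2.22 in chow. The scaling between heavy polysomes and monosomes is not known, so these levels are to be read against each other and not against 0. The monosomes carried most of this difference: the level on monosomes differed by a median of -1.27 in the 53 genes and 1.45 in the 105, while the level on heavy polysomes differed by 0.34 and -0.61. The monosome part was the larger one in 38 of the 53 (71.7%) and in 74 of the 105 (70.5%), against 57.4% of all genes tested. In cytoplasm 12.6% of all genes tested were higher with DDC and 9.78% lower. Of the 53 genes placed higher, 4 were higher and 7 lower in cytoplasm, and of the 105 placed lower, 16 were higher and 11 lower. These shares lie near those of all genes tested.

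**Figure D1:**
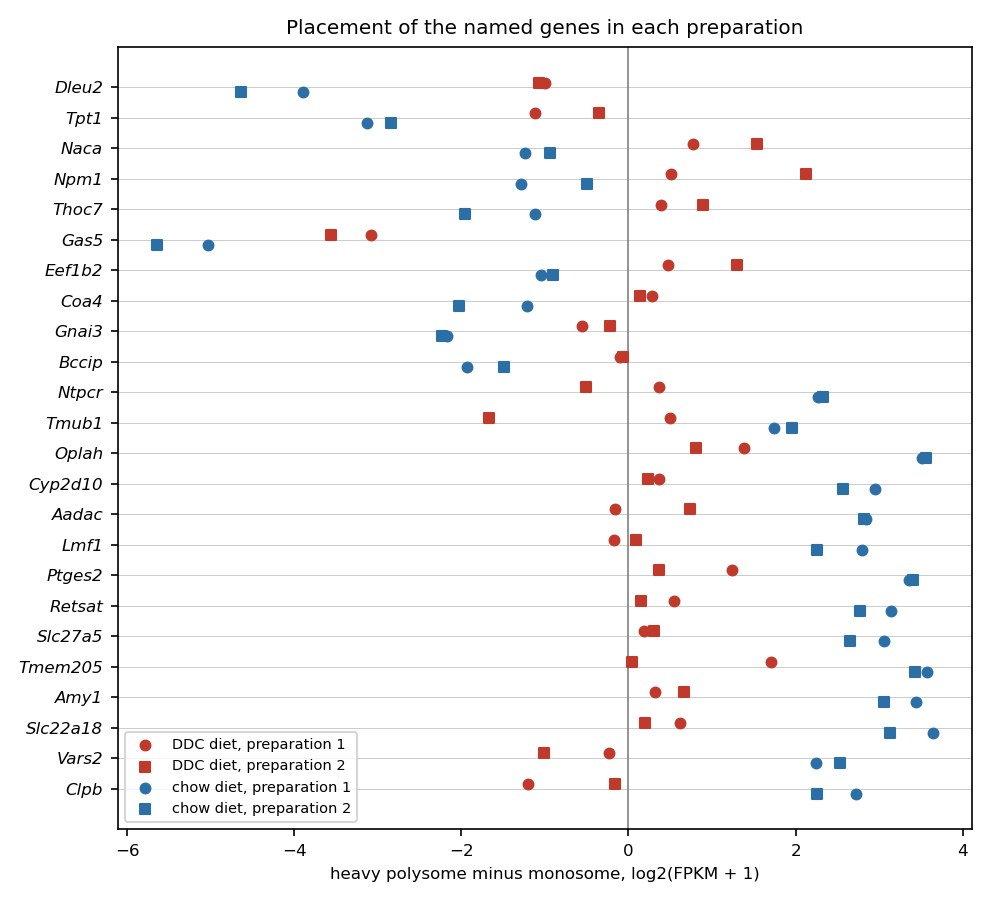
Heavy polysome minus monosome level in log2(FPKM + 1) for the 24 genes with the largest placement differences that were measured in both diets, 1 point for each preparation, DDC in red and chow in blue. Genes at the top are placed higher with DDC and genes from Ntpcr down are placed lower; in chow the upper genes lie below 0 and the lower genes above 0, while with DDC the points of both sets overlap. The place of 0 depends on the scaling between the fractions.

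Outside the ribosomal proteins, the list of TOP messages held more genes placed higher than any other list counted. Of 25 listed non-ribosomal TOP messages, 5 were placed higher and none lower, against 1.35% and 1.3% of all genes tested. A positive difference was found in 21, against 5263 of all 10897 genes tested. The median of the TOP list was 1.16 against -0.04 over all genes. The median difference on heavy polysomes was -0.004 and that on monosomes -1.13. The 5 were Tpt1, Naca, Npm1, Gas5 and Eef1b2.

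Tpt1 encodes the translationally controlled tumor protein, an abundant growth-related protein. It lay at 676 and 755 FPKM on heavy polysomes and 1466 and 966 FPKM on monosomes with DDC, against 520 and 587 FPKM on heavy polysomes and 4563 and 4200 FPKM on monosomes with chow. Both chow monosome libraries stood far above all others, and the heavy polysome libraries were close together. The placement difference was 2.25 ± 0.38 (SE, adjusted p = 0.0179). On light polysomes the values were 441 and 725 FPKM with DDC and 883 and 946 FPKM with chow.

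Naca encodes the alpha subunit of the nascent polypeptide-associated complex, which binds new chains as they leave the ribosome. It had 209 and 265 FPKM on heavy polysomes and 122 and 91.0 FPKM on monosomes with DDC, against 297 and 358 FPKM on heavy polysomes and 700 and 686 FPKM on monosomes with chow. In FPKM the message was higher on heavy polysomes than on monosomes in both DDC preparations and lower in both chow preparations. The difference was 2.24 ± 0.34 (adjusted p = 0.0149), and Naca was also lower in cytoplasm with DDC (-0.88, adjusted p = 0.02).

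Npm1, the nucleolar chaperone nucleophosmin, had 36.9 and 80.3 FPKM on heavy polysomes and 25.5 and 17.6 FPKM on monosomes with DDC, against 26.6 and 34.6 FPKM on heavy polysomes and 66.3 and 49.2 FPKM on monosomes with chow (2.21 ± 0.50, adjusted p = 0.0431). Eef1b2, a guanine nucleotide exchange subunit of elongation factor 1, had 392.4 and 449 FPKM on heavy polysomes and 283 and 181 FPKM on monosomes with DDC, against 315 and 348 FPKM and 650 and 650 FPKM with chow (1.86 ± 0.36, adjusted p = 0.0229). In both, the chow monosome libraries were higher than both DDC monosome libraries. The protein-coding transcripts of Eef1b2 reached at most 244 FPKM in the 8 libraries. Other TOP messages did not pass: Eef1a1, elongation factor 1 alpha, differed by 1.65 ± 0.50 (adjusted p = 0.0892), Eef2, the translocation factor, by 0.39 ± 0.42 and Pabpc1, the polyA-binding protein, by -0.24 ± 0.52. Over all 52 translation factors tested 1 was placed higher, and the median was 0.30, or 0.48 with equal summed FPKM. Npm1 did not pass with the preparation as a block in the 12 gradient libraries (adjusted p = 0.0674). The coding starts of the 3 genes at the head of this side are printed here, with G and C in capitals, because base composition is compared between the sides further on. They are the first 60 coding bases of the most abundant coding transcript, from GENCODE M21 on GRCm38. The Tpt1 gene lies on chr14:75845093-75848525 on the plus strand, Naca on chr10:128035575-128048637 on the plus strand and Npm1 on chr11:33152287-33163206 on the minus strand.
Tpt1: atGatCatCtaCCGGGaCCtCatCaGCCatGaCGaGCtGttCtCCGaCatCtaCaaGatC
Naca: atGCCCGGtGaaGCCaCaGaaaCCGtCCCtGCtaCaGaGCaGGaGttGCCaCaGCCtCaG
Npm1: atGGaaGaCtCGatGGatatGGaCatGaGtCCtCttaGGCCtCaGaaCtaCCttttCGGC

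Long noncoding RNAs were also among the largest placement differences. Gas5, a TOP transcript that hosts small nucleolar RNAs in its introns and codes for no protein, had 9.55 and 6.50 FPKM on heavy polysomes and 88.2 and 87.3 FPKM on monosomes with DDC, against 9.41 and 6.17 FPKM on heavy polysomes and 339 and 359 FPKM on monosomes with chow. Its FPKM was lower on heavy polysomes than on monosomes in both diets. The difference of 2.02 ± 0.39 (adjusted p = 0.0243) came from the monosome libraries, which did not overlap between the diets. Dleu2, the host RNA of miR-15a and miR-16-1, had 0 and 0.667 FPKM on heavy polysomes and 1.00 and 2.50 FPKM on monosomes with DDC, against 1.96 and 0.578 FPKM and 43.0 and 38.3 FPKM with chow (3.23 ± 0.61, adjusted p = 0.0221). It was also lower in cytoplasm with DDC (-2.36, adjusted p = 0.0025), and its DDC values lie near the pseudocount. With a pseudocount of 0.1 it differed by 2.49 and did not pass (adjusted p = 0.261). Of 22 long noncoding RNAs tested, 2 were placed higher and 1 lower, with a median of 0.89 that was 1.91 with a pseudocount of 0.1 and 0.43 with a pseudocount of 5. The nuclear-retained Malat1 did not pass (-1.09 ± 0.77, adjusted p = 0.45).

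The other named genes placed higher have no list in common. Thoc7, a subunit of the THO complex that couples transcription to mRNA export, had 15.7 and 14.9 FPKM on heavy polysomes and 11.7 and 7.55 FPKM on monosomes with DDC, against 19.4 and 11.004 FPKM and 43.3 and 45.7 FPKM with chow (2.18 ± 0.40, adjusted p = 0.0208). Bccip, a BRCA2 and p21 binding protein, had 19.8 and 19.6 FPKM on heavy polysomes and 21.3 and 20.6 FPKM on monosomes with DDC, against 22.3 and 37.0 FPKM and 87.9 and 106 FPKM with chow (1.63 ± 0.35, adjusted p = 0.0365). Coa4, a cytochrome c oxidase assembly factor, and Gnai3, an inhibitory G protein alpha subunit, differed by 1.83 and 1.81 (adjusted p = 0.0458 and 0.0229). In these 4 genes the chow monosome libraries were the highest of the 8. Txnrd1, a selenoprotein that reduces thioredoxin and a target of NRF2, was unlike them. It had 26.9 and 39.7 FPKM on heavy polysomes and 19.4 and 19.8 FPKM on monosomes with DDC, against 10.02 and 11.1 FPKM on heavy polysomes and 18.2 and 18.05 FPKM on monosomes with chow (1.44 ± 0.35, adjusted p = 0.0486). Its monosome level was alike in both diets and its heavy polysome level was higher with DDC. Txnrd1 was the 1 gene of 18 selenoproteins and of 40 NRF2 and glutathione genes that passed, where 1.35% of all genes tested were placed higher. With the preparation as a block Txnrd1 (adjusted p = 0.0573) and Coa4 (adjusted p = 0.0692) did not pass.

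Genes placed lower included mitochondrial and metabolic genes of the hepatocyte. Clpb, a mitochondrial disaggregase, had 14.2 and 26.7 FPKM on heavy polysomes and 33.8 and 29.9 FPKM on monosomes with DDC, against 51.9 and 41.5 FPKM on heavy polysomes and 7.03 and 7.92 FPKM on monosomes with chow. The DDC libraries were higher on monosomes and lower on heavy polysomes than both chow libraries, with no overlap in either fraction (-3.17 ± 0.52, adjusted p = 0.0172). Its cytoplasmic level differed by -0.09 (adjusted p = 0.9). Vars2, the mitochondrial valyl-tRNA synthetase, differed by -3.01 ± 0.61 (adjusted p = 0.0276), with monosome values of 25.1 and 21.5 FPKM with DDC and 4.74 and 1.88 FPKM with chow. Its most abundant transcript, with 52.8% of its FPKM, is annotated without a coding sequence, and its protein-coding transcripts reached at most 0.927 FPKM in the 8 libraries.

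Slc22a18, an organic cation transporter-like membrane protein, had 316 and 172 FPKM on heavy polysomes and 206 and 151 FPKM on monosomes with DDC, against 267 and 270 FPKM on heavy polysomes and 20.4 and 29.9 FPKM on monosomes with chow. The heavy polysome libraries overlapped between the diets, and the monosome libraries were several times higher with DDC (-2.99 ± 0.47, adjusted p = 0.0167). Amy1, the amylase of salivary gland and liver, had 176 and 97.0 FPKM on heavy polysomes and 142 and 61.1 FPKM on monosomes with DDC, against 316 and 292 FPKM and 28.2 and 34.1 FPKM with chow (-2.77 ± 0.50, adjusted p = 0.0208). Lmf1, needed in the endoplasmic reticulum for active lipases, Ptges2, a prostaglandin E synthase, and Tmub1, a membrane ubiquitin-like protein, also had monosome levels that were higher with DDC, and they differed in placement by -2.57, -2.58 and -2.43. With protein-coding transcripts alone Ptges2 differed by -1.07 (adjusted p = 0.126) and no longer passed, and Bccip above differed by 1.06 (adjusted p = 0.245). Of 39 named genes that had passed and were tested in this way, 36 kept their call and 3 lost it. The protein-coding transcripts of Slc22a18, Amy1 and Lmf1 reached at most 157, 195 and 33.8 FPKM in the 8 libraries. Their highest gene sums were 316, 316 and 117 FPKM. Tmub1 did not pass with the preparation as a block (adjusted p = 0.0647). The coding starts of Clpb, Slc22a18 and Amy1 are printed by the same rule as before. The Clpb gene lies on chr7:101663633-101795506 on the plus strand, Slc22a18 on chr7:143473736-143499334 on the plus strand and Amy1 on chr3:113555710-113606699 on the minus strand.
Clpb: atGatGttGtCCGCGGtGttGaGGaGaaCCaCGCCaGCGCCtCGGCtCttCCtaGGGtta
Slc22a18: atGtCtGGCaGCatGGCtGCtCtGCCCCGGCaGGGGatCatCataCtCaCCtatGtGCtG
Amy1: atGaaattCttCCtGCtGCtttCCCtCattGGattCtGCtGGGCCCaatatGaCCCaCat

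Retsat, a retinol saturase of liver and fat, differed in both its level and its placement. It had 75.8 and 48.8 FPKM on heavy polysomes and 51.6 and 44.0 FPKM on monosomes with DDC, against 1308 and 813 FPKM on heavy polysomes and 147 and 119 FPKM on monosomes with chow. The level was lower with DDC in both fractions and in cytoplasm (-3.50 in cytoplasm, adjusted p = 1.8e-05), and more so on heavy polysomes (placement difference -2.61 ± 0.44, adjusted p = 0.0179). Slc27a5, which couples bile acids and very long chain fatty acids to coenzyme A, had 285 and 125 FPKM on heavy polysomes and 252 and 101 FPKM on monosomes with DDC, against 895 and 668 FPKM and 107 and 105 FPKM with chow (-2.61 ± 0.59, adjusted p = 0.0429). Here the loss on heavy polysomes was the larger part, and the monosome libraries overlapped. Slc27a5 was also lower in cytoplasm (-1.92, adjusted p = 0.0067), close to its difference on heavy polysomes (-2.03). The heavy polysome part was also the larger one for Aadac, a microsomal arylacetamide deacetylase (-2.54 ± 0.47). Aadac was lower in cytoplasm too (-1.28, adjusted p = 0.017), and its monosome libraries overlapped. The larger part was again on heavy polysomes for the membrane protein Tmem205 (-2.63 ± 0.59). The same held for Oplah, which opens the ring of oxoproline in the glutathione cycle (-2.44 ± 0.53), but its parts were close in size. In Tmem205 and Oplah the monosome libraries were higher with DDC and did not overlap. Ntpcr, a nucleoside triphosphatase, differed by -2.37 ± 0.41.

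**Figure D2:**
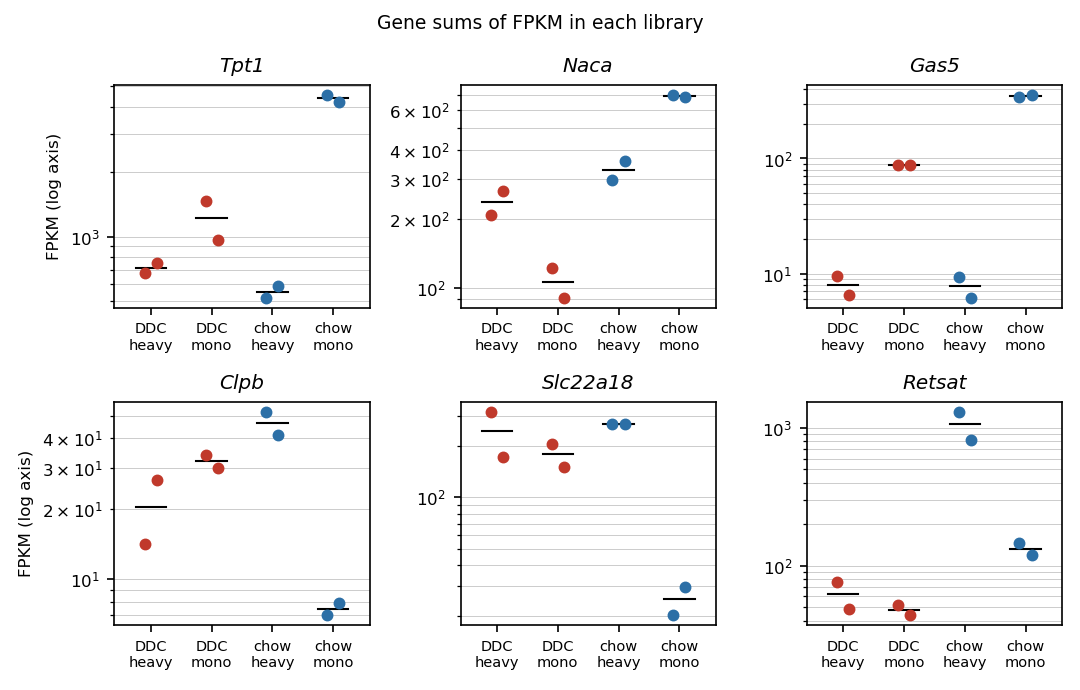
FPKM on a log axis in each of the 8 libraries for 6 named genes, points for libraries and bars for the mean of 2, DDC in red left of chow in blue. Tpt1, Naca and Gas5 (top) are highest in the chow monosomes, while Clpb and Slc22a18 (bottom) are lowest there and Retsat is lower with DDC in both fractions.

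Genes of drug metabolism leaned towards lower placement. Of 45 cytochrome P450 genes tested, 43 had a negative difference, against 5634 of all 10897 genes tested. Of the 45, 3 were placed lower and none higher, against 1.3% and 1.35% of all genes tested. The median was -0.68 against -0.04 over all genes. The median difference on heavy polysomes was -1.14, that on monosomes -0.20 and that in cytoplasm -1.085. The median placement difference was -0.56 with equal summed FPKM, -0.48 with quantile normalization and -1.02 once the trend with GC content was taken out. The 3 that passed were Cyp2d10, Cyp4f13 and Cyp2a12. Cyp2d10, which has close paralogs, had 897 and 508 FPKM on heavy polysomes and 693 and 430 FPKM on monosomes with DDC, against 1782 and 1813 FPKM and 230.5 and 305 FPKM with chow (-2.45 ± 0.49, adjusted p = 0.0272). Both heavy polysome libraries were lower with DDC and both monosome libraries higher. Cyp4f13 and Cyp2a12 differed by -1.88 ± 0.45 and -1.54 ± 0.34, and with the preparation as a block Cyp2a12 did not pass (adjusted p = 0.0508).

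Respiratory chain genes were lower with DDC in both fractions, with median level differences of -1.17 on heavy polysomes and -1.003 on monosomes, and a few of them differed in placement. Of 77 tested genes of oxidative phosphorylation, 1 was placed higher and 4 lower, and the median of -0.14 became 0.06 with equal summed FPKM and 0.17 with quantile normalization. Ndufc2, a subunit of complex I, had 174 and 168 FPKM on heavy polysomes and 43.4 and 48.0 FPKM on monosomes with DDC, against 409 and 483 FPKM on heavy polysomes and 33.1 and 25.7 FPKM on monosomes with chow (-2.00 ± 0.34, adjusted p = 0.0183). Ndufa9, of the same complex, and Uqcrc1, a core subunit of complex III, differed by -1.72 ± 0.32 and -1.74 ± 0.37 (adjusted p = 0.0208 and 0.0374). In all 3 the heavy polysome level was lower and the monosome level higher with DDC in every library. The 78 mitochondrial ribosomal protein genes and 36 genes of fatty acid oxidation had no call. Over all genes tested the shares were 1.35% placed higher and 1.3% lower, at which a list of this size may hold no call.

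Lipid, heme, glycolytic and lysosomal lists had scattered calls. Over all genes tested 1.35% were placed higher and 1.3% lower, so a single call in a list of this size says little about the list. Fads2, the delta-6 desaturase, had 155 and 173 FPKM on heavy polysomes and 105 and 195 FPKM on monosomes with DDC, against 304 and 270 FPKM and 47.9 and 51.7 FPKM with chow (-2.31 ± 0.37, adjusted p = 0.0168), and it was the 1 gene of 35 in cholesterol and fatty acid synthesis that passed. Alad, the second enzyme of heme synthesis, was the 1 of 17 heme genes (-1.66 ± 0.36, adjusted p = 0.0398). Pfkl, the liver phosphofructokinase, was the 1 of 30 in glycolysis and gluconeogenesis (-1.35 ± 0.30, adjusted p = 0.0412). The lysosomal genes Atp6v0c, a proton pump subunit, and Gaa, acid glucosidase, differed by -2.21 and -1.67, while the median of the 46 lysosomal genes was 0.01, or 0.15 with equal summed FPKM. With the preparation as a block Pfkl (adjusted p = 0.0643) and Gaa (adjusted p = 0.0596) did not pass. Creb3l3, a liver transcription factor cleaved from a membrane precursor, differed by -1.84 ± 0.43 (adjusted p = 0.0469), and Flna, which crosslinks actin, by -2.20 ± 0.43 (adjusted p = 0.0251). The most abundant Flna transcript is annotated without a coding sequence, and its protein-coding transcripts reached at most 1.79 FPKM.

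**Figure D3:**
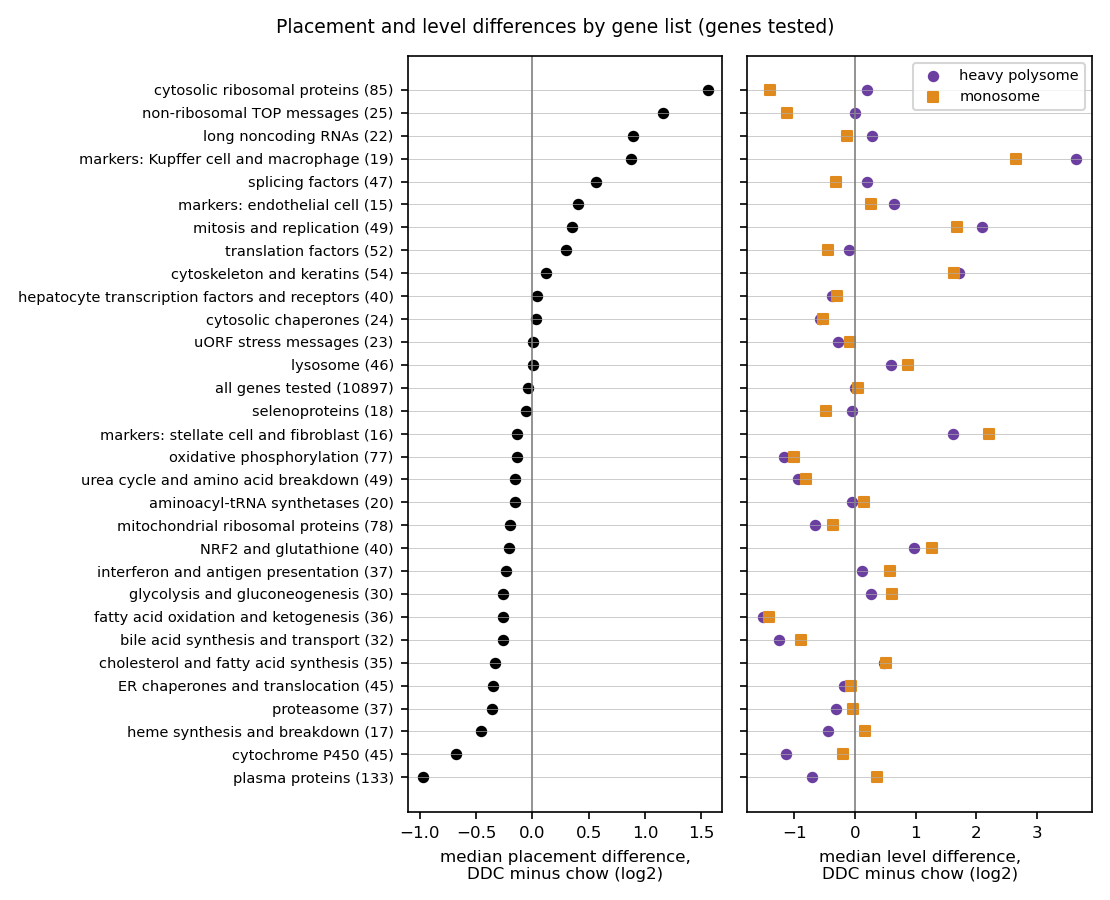
Median placement difference (left) and median level difference on heavy polysomes and monosomes (right), each DDC minus chow on a log2 scale, for the gene lists with at least 15 genes tested, whose number stands in brackets. Ribosomal protein and TOP lists are highest at 1.56 and 1.16, with monosome medians of -1.40 and -1.13, and the plasma protein list is lowest at -0.98.

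Several lists had no gene that passed. Over all genes tested 1.35% were placed higher and 1.3% lower, at which a list of this size may hold no call. Over all 10897 genes tested, 5263 differences were positive and 5634 negative. Of 47 splicing factors 37 had a positive difference, with a median of 0.57, or 0.29 once the trend with GC content was taken out. Of 37 proteasome subunits 28 had a negative difference, with a median of -0.36 that was -0.15 with equal summed FPKM and -0.10 with quantile normalization. Messages with upstream open reading frames, which respond to the integrated stress response, had a median of 0.01 over 23 genes. Of these, the stress regulator Atf4 had lower FPKM on heavy polysomes than on monosomes in both diets. It had 22.4 and 17.4 FPKM on heavy polysomes and 92.7 and 70.7 FPKM on monosomes with DDC. With chow it had 29.0 and 20.2 FPKM and 124 and 115 FPKM (0.27 ± 0.37, adjusted p = 0.726). On light polysomes Atf4 had 50.6 and 76.2 FPKM with DDC and 91.4 and 90.0 FPKM with chow. Ddit3, its target, differed by 0.68 ± 0.58, Ppp1r15b, a phosphatase subunit for eIF2 alpha, by 0.56 ± 0.34 and Odc1, the polyamine enzyme, by -0.56 ± 0.38. The ferritin messages Fth1 and Ftl1, which carry an iron-responsive element, differed by 0.02 ± 0.51 and -0.08 ± 0.50. Ccnd1, cyclin D1, had 37.0 and 29.9 FPKM on heavy polysomes and 41.7 and 56.3 FPKM on monosomes with DDC, against 18.3 and 5.64 FPKM and 38.5 and 12.7 FPKM with chow. The chow preparations differed widely in both fractions, and the placement difference of 0.51 ± 0.95 could not be resolved at this spread. The keratins Krt8 and Krt18, the urea cycle enzyme Cps1 and the fatty acid synthase Fasn differed by -0.60, -1.42, -0.68 and -0.71, and none of these passed (adjusted p = 0.597, 0.336, 0.527 and 0.649). The most abundant transcripts of Fasn and Ppp1r15b are annotated without a coding sequence. Their protein-coding transcripts reached at most 28.6 and 3.43 FPKM in the 8 libraries.

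Some genes met the threshold while listed at 0 or near 0 in a whole group, and no difference is given for them. Gipc2 and Csn3 were listed at 0 in all 4 chow fraction libraries and were higher in cytoplasm with DDC. The most abundant Gipc2 transcript is annotated without a coding sequence. With DDC, Gipc2 had 18.1 and 28.6 FPKM on heavy polysomes and 2.89 and 7.46 FPKM on monosomes, and Csn3, kappa casein, had 27.7 and 27.8 FPKM and 6.87 and 7.76 FPKM. H19, an imprinted noncoding RNA of fetal liver, had 1.29 and 1.79 FPKM on heavy polysomes and 17.0 and 32.5 FPKM on monosomes with DDC, and it was listed at 0 in 3 of the 4 chow libraries. Car1, Hnf1aos1 and Ugt1a8 had values in chow, and each was listed at 0 in libraries of DDC. In all, 58 of the 289 genes were below 1 FPKM in both fractions of a diet, against 1880 of all 10897 genes tested, which is a similar share. In such genes the placement difference restates the placement in the other diet. Those left out of the test as listed at 0 in a whole group included Apoe, Apoa1, Hp and Trem2.

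Base composition moved with the placement difference. Over 9940 protein-coding genes outside both lists, the Spearman correlation between the GC content of the transcripts and the placement difference was -0.41, across genes, which are not independent and share the same 8 libraries. The genes were split by GC content into 5 bins of 1988 genes. In the bin with the lowest GC (median 42.5%) the median difference was 0.40, and in the bin with the highest GC (median 58.4%) it was -0.42. The lowest bin held 34 genes placed higher and 4 lower, and the highest bin 6 higher and 56 lower. The monosomes again made the difference: the correlation with GC was 0.41 for the level difference on monosomes, 0.25 in cytoplasm and 0.10 on heavy polysomes. The median placement was -0.35 and -0.14 in the lowest bin and 0.39 and 0.04 in the highest in the DDC preparations, against -0.72 and -0.55 in the lowest and 0.70 and 0.47 in the highest in the chow preparations, where the slope was steeper. The Spearman correlation with the placement difference was 0.2 for the length of the 3′ untranslated region, -0.08 for coding length and 0.01 for the length of the 5′ untranslated region, over 8915 genes.

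The transcripts of the 53 genes placed higher had a median GC content of 44.4% and those of the 105 placed lower 56.3%, against 51.1% over all genes. Among the coding starts printed above, 28 to 36 of the 60 bases were G or C on both sides, and the transcripts did not all follow the medians: Tpt1 had a transcript GC of 53.1%, and Amy1 of 42.4%. With each library's trend with GC taken out, 106 genes were placed higher and 77 lower, 146 of them among the 289. Tpt1 then differed by 2.38 and Naca by 2.10, Clpb by -2.88 and Amy1 by -3.16, and all 4 passed (adjusted p = 0.014, 0.014, 0.024 and 0.017). Of 43 named genes, 16 did not pass after it. On the side placed higher these were Npm1 (1.82, adjusted p = 0.0577), Gas5 (1.71, adjusted p = 0.0701), Gnai3, Bccip and Txnrd1. On the other side they were Pfkl, Alad, Gaa, Atp6v0c, Uqcrc1, Creb3l3, Cyp4f13, Tmub1, Oplah, Slc27a5 and Tmem205, with adjusted p between 0.0517 and 0.11. The part of GC content in library preparation or sequencing was not tested.

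**Figure D4:**
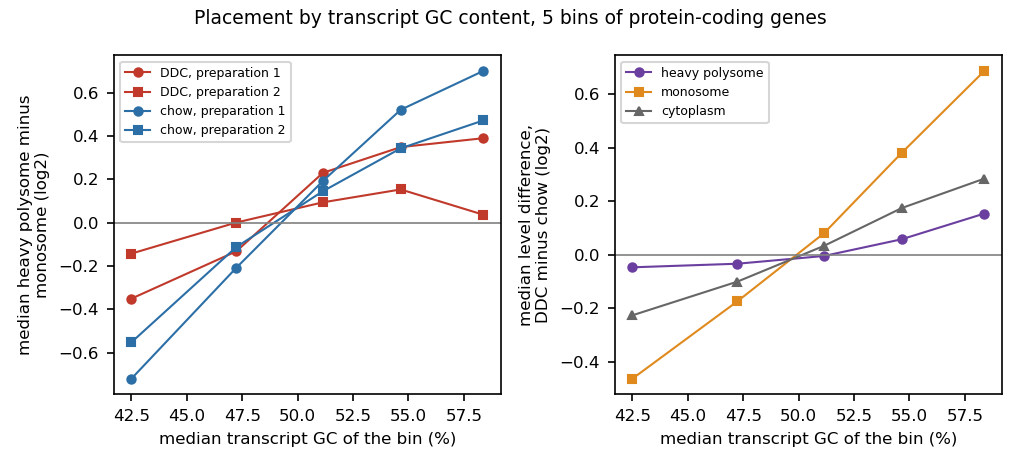
Median placement in each preparation (left; DDC in red, chow in blue) and median level difference, DDC minus chow (right), in 5 bins of 9940 protein-coding genes by transcript GC content in percent; log2 scale. The chow lines are steeper than the DDC lines, and on the right the monosome line spans -0.46 to 0.69 while the heavy polysome line spans -0.05 to 0.15.

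Markers of other cells were mostly higher with DDC, and their placement differed from list to list. Where a marker lay near 0 in chow, its placement difference restates its placement with DDC. The macrophage markers summed to 6989 and 5788 FPKM on heavy polysomes and 1320 and 1129 FPKM on monosomes with DDC, against 551 and 336 FPKM on heavy polysomes and 161 and 137 FPKM on monosomes with chow. All 19 macrophage markers tested had a positive placement difference, against 5263 of all 10897 genes tested. The median of the 19 was 0.88, or 0.41 with quantile normalization, and none passed. C1qc, a complement subunit made by macrophages, was closest at 1.77 (adjusted p = 0.0648). Hepatocyte markers were abundant in every group, at 13410 to 19300 FPKM on DDC heavy polysomes and 41310 to 48130 FPKM on chow heavy polysomes, with a median placement difference of -0.42 over 11 genes, or -0.21 with equal summed FPKM, and no call. The markers of stellate cells and fibroblasts had 7 positive and 9 negative differences with a median of -0.13, and those of cholangiocytes 4 positive and 5 negative with a median of -0.24, while their median levels on monosomes were 2.20 and 1.76 higher with DDC on the log2 scale. In both chow heavy polysome libraries, 3 of the 22 listed macrophage markers were at 0. So were 7 of the 20 listed for stellate cells and fibroblasts and 11 of the 16 listed for cholangiocytes. The part of other cell types in the placement of shared genes, such as TOP messages, was not tested. Fewer cells of a type and less RNA per cell cannot be told apart in these samples.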

How the data were processed

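RNA of 16 libraries was sequenced with a TruSeq stranded mRNA kit, per the labels' protocols. Alignment software is given as STAR (2.4.2a) on GRCm38 or mm10 and the quantifier as Cuffnorm in the submitters' processing notes, which list Trimmomatic for trimming too. What the authors deposited is FPKM for each transcript; how libraries were scaled is not given in the sources used here. The values are not whole, so no count test was used and depth is unknown. Of 117592 transcripts, 116728 matched GENCODE M21, and the 864 left out held at most 0.509% of a library's FPKM. FPKM were summed per gene, giving 48158 genes.

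Genes with at least 1 FPKM in 2 of the 8 heavy polysome and monosome libraries were kept (10936), and 39 genes at 0 in a whole group but at 100 FPKM or more elsewhere were left out. The pseudocount of 1 changes the placement differences of low genes, which can become smaller or larger by it. Dleu2 differed by 3.23 with a pseudocount of 1 and by 2.49 with 0.1, while the median of the long noncoding RNAs was 0.89 and 1.91. With limma (3.58.1, under R 4.3.3) 8 group means were estimated from the 16 libraries together, using a variance trend (8 residual and 4.17 prior degrees of freedom), and p-values were adjusted over 10897 genes by Benjamini-Hochberg, with a threshold of 0.05. The code was tested on simulated data.

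Replicate numbers name the preparation within a diet, per the labels. Deviations of the same number were correlated between gradient fractions of 1 diet (0.306 to 0.539 between monosomes, light and heavy polysomes), so numbers pair fractions within a diet and not the diets. The alternatives were the block, the libraries in the fit, the pseudocount, the filter, the scaling, genes at 0, transcript types, the variance model and leaving out each library or preparation; the GC correction (a loess trend of each library on transcript GC), the fit of 12 gradient libraries without a block and the restriction to genes at 1 FPKM in both diets were added after seeing the data. The genes and lists were chosen with earlier results of these data known.

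Named genes, outside ribosomal and plasma protein lists and predicted genes, were the 15 largest differences in each direction among those that passed, a mean of 20 FPKM or more in a group, and preparations that did not overlap between the diets; then the 3 lowest p in each list; then 16 fixed genes. A gene that the rule names is not reported here. Pseudogene copies and overlapping genes may share reads.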

Additional observations from a re-analysis of the deposited data

Results flagged for a closer look

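The placement of 147 genes towards heavy polysomes and of 142 away from them differed between the diets by the test of the difference itself. The counts were close to each other, and the test and its pooled spread are as given above. Each log2 placement difference below is DDC minus chow and passed in limma with Benjamini-Hochberg adjustment.

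Among translation genes the ribosomal protein genes Rps3a1 (2.70), Rpl23a (2.12) and Rpl22 (1.81) differed as did the TOP messages Tpt1 (2.25), Naca (2.24), Npm1 (2.21), Gas5 (2.02) and Eef1b2 (1.86). Outside these, Dleu2 (3.23), Thoc7 (2.18), Coa4 (1.83), Gnai3 (1.81), Bccip (1.63) and Txnrd1 (1.44) were placed higher.

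Among secreted proteins Vtn (-3.03), Serpinc1 (-2.70) and Serpinf1 (-2.44) were placed lower. The protein-coding transcripts of Vtn, Serpinc1 and Serpinf1 reached at most 5965, 1615 and 694 FPKM in the 8 libraries. Their highest gene sums were 12414, 5721 and 4431 FPKM. Mitochondrial genes placed lower were Clpb (-3.17), Vars2 (-3.01), Ptges2 (-2.58), Ndufc2 (-2.00), Uqcrc1 (-1.74) and Ndufa9 (-1.72). Membrane proteins and enzymes of the hepatocyte placed lower were Slc22a18 (-2.99), Amy1 (-2.77), Tmem205 (-2.63), Slc27a5 (-2.61), Retsat (-2.61), Lmf1 (-2.57), Aadac (-2.54), Cyp2d10 (-2.45), Oplah (-2.44), Cyp4f13 (-1.88), Alad (-1.66), Cyp2a12 (-1.54) and Pfkl (-1.35). The rest were Tmub1 (-2.43), Ntpcr (-2.37), Fads2 (-2.31), Atp6v0c (-2.21), Flna (-2.20), Creb3l3 (-1.84) and Gaa (-1.67).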

How the results depend on the processing

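The number of calls, 147 higher and 142 lower (289 in all), depended most on which libraries gave the spread. The 8 libraries of the contrast gave 1 call with 1 higher and 0 lower, both without a block and with the replicate block, and the 12 gradient libraries without a block gave 5 (3 higher, 2 lower; 1462 genes had an unadjusted p under 0.05 with the 8 libraries). In each of these fits all 43 named genes that had passed lost their call. The replicate block for the preparation in the 12 gradient libraries gave 91 higher and 145 lower, and 36 of the 43 kept their call. The GC correction gave 183 (106 higher, 77 lower), and with the replicate block in 12 libraries 166 (73 higher, 93 lower). A pseudocount of 5 gave 509 (284 higher, 225 lower), and protein-coding transcripts alone 444 (264 lower). Leaving out single libraries gave 8 to 393 calls (6 to 197 higher, 2 to 215 lower), and leaving out both fractions of a preparation 7 to 374 (5 to 213 higher, 2 to 228 lower). The low ends were those without chow monosome replicate 2 and without chow preparation 2, where all 43 named genes that had passed lost their call. Without both fractions of DDC preparation 2 there were 104 calls (68 higher, 36 lower), without those of DDC preparation 1 228 lower, without DDC heavy polysome replicate 2 159 (51 lower), without DDC monosome replicate 2 130 (59 higher, 71 lower), and without chow heavy polysome replicate 2 184 (92 higher, 92 lower). The cause of these moves was not tested, beyond the smaller spread of the cytoplasm. No named gene that passed changed sign under any alternative run. Among fixed genes that did not pass, leaving out single libraries gave -0.26 to 1.28 for Ccnd1, -0.06 to 0.85 for Eef2, -0.44 to 0.48 for Fth1, -0.54 to 0.37 for Ftl1 and -0.65 to 0.17 for Pabpc1. Leaving out a preparation changed the sign of Fth1 (-0.17 without DDC 1 and -0.47 without chow 2), Ftl1 (0.18 without DDC 2 and 0.45 without chow 1), Pabpc1 (0.27 without chow 1) and Odc1 (0.04 without DDC 1). Ftl1 changed sign with equal summed FPKM (0.12), quantile normalization (0.65), the GC correction and the GC correction with the replicate block (0.28 in both), Fth1 with quantile normalization (-0.04), and Ppp1r15b (-0.12) and Pabpc1 (0.07) with protein-coding transcripts.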

Other observations

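No gene of the mitosis and replication list or of the aminoacyl-tRNA synthetase list passed limma's Benjamini-Hochberg threshold. Over all genes tested 1.35% passed as placed higher and 1.3% as placed lower. The mitochondrial Vars2, which passed, is not on the synthetase list. Of 49 mitosis and replication genes tested, 33 had a positive placement difference, against 5263 of all 10897 genes tested. The median of the 49 was 0.35 against -0.04 over all genes, or 0.17 with equal summed FPKM. Plk1 and Kif20a among them were below 1 FPKM on chow heavy polysomes and monosomes, so their differences restate the placement with DDC. Gins2, a subunit of the replicative helicase complex, had 21.7 and 17.0 FPKM on heavy polysomes and 2.29 and 2.81 FPKM on monosomes with DDC, against 3.02 and 2.69 FPKM on heavy polysomes and 1.16 and 0.485 FPKM on monosomes with chow (1.40 ± 0.37, adjusted p = 0.0628). Within each diet its heavy polysome libraries were above its monosome libraries, and the DDC values were higher in both fractions. Its most abundant transcript, with 63.1% of its FPKM, is annotated without a coding sequence. Its protein-coding transcripts reached at most 4.08 FPKM in the 8 libraries. Of 20 aminoacyl-tRNA synthetases tested 16 had a negative difference, against 5634 of all 10897 genes tested. The median of the 20, -0.16, became 0.05 with equal summed FPKM. Vars, the cytosolic valyl-tRNA synthetase, had 18.5 and 11.8 FPKM on heavy polysomes and 19.98 and 9.52 FPKM on monosomes with DDC. With chow it had 15.4 and 9.70 FPKM and 1.49 and 2.20 FPKM (-2.14 ± 0.58, adjusted p = 0.0658). Its most abundant transcript, with 53.6% of its FPKM, is annotated without a coding sequence. Its protein-coding transcripts reached at most 10.1 FPKM in the 8 libraries.

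The conjugation and detoxification gene Ephx1, microsomal epoxide hydrolase, also missed the threshold. It had 704 and 637 FPKM on heavy polysomes and 465 and 509 FPKM on monosomes with DDC, against 344 and 435 FPKM on heavy polysomes and 53.2 and 88.6 FPKM on monosomes with chow (-2.02 ± 0.51, adjusted p = 0.0556). Ephx1 was higher with DDC in both fractions, and more so on monosomes.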
